A study of Homo sapiens with 12 samples.

Results

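Transforming growth factor beta (TGF-beta) signaling was followed through 10 genes in melanoma cells exposed to the RAF inhibitor vemurafenib. The 10 genes were chosen by symbol from the 23273 genes listed for each cell line. They comprise the ligands TGFB1, TGFB2 and TGFB3, the receptors TGFBR1, TGFBR2 and TGFBR3, the signal transducers SMAD2 and SMAD3, the inhibitor SMAD7 and the target gene TGFBI. All 10 were present in both tables. RNA came from 2 human melanoma cell lines, COLO858 (originally from ECACC) and MMACSF (originally from RIKEN), each a single line grown in its own medium. Cells of each line received DMSO, the drug vehicle, or 0.2 μM vemurafenib for 24 or 48 h, with 2 libraries in each of the 6 groups. No harvest time is given for the DMSO libraries, so both drug times of a line were set against the same DMSO pair. The question was which parts of the TGF-beta pathway changed in RNA level under RAF inhibition, and whether the lines differed.

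TGF-beta ligands are secreted in a latent form and bind, once activated, to the type II receptor TGFBR2, which recruits and phosphorylates the type I receptor TGFBR1. TGFBR3, also called betaglycan, is a co-receptor that presents ligand, TGFB2 above all. The active receptor pair phosphorylates SMAD2 and SMAD3, which join SMAD4 and enter the nucleus to regulate transcription. SMAD7 is induced by the pathway and blocks the receptors. In melanocytes the pathway restrains growth, and in melanoma it is known for its ties to matrix production and an undifferentiated, invasive phenotype.

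In GENCODE annotation on GRCh37, the build of the authors' alignment, the ligand genes lie at chr19:41807492-41859827 (TGFB1, minus strand), chr1:218518678-218617961 (TGFB2, plus strand) and chr14:76424440-76449354 (TGFB3, minus strand). The receptor genes lie at chr9:101866320-101916474 (TGFBR1, plus strand), chr3:30648093-30735634 (TGFBR2, plus strand) and chr1:92145900-92371892 (TGFBR3, minus strand). SMAD2 lies at chr18:45335328-45457517 and SMAD7 at chr18:46446223-46477335, both on the minus strand. SMAD3 lies at chr15:67356101-67487511 and TGFBI at chr5:135364677-135399507, both on the plus strand. The TGFB1 gene overlaps the listed genes HNRNPUL1, CCDC97 and TMEM91 on the opposite strand, and TGFB3 overlaps IFT43. The strand setting of the counting is not given in the sources used here, so reads from such overlaps may not have been told apart.

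The promoters of the 3 genes that passed the test against DMSO are shown because their RNA levels moved in different ways. Each runs over the 250 bases before a RefSeq start site on GRCh38.p14, plus strand, 5′ to 3′. Capitals mark matches, on either strand, to the AP-1 motif TGANTCA, the SMAD box CAGACA and the TEAD motif GGAATG. They also mark the SP1 box GGGCGG and the CANGTG form of the E-box. The window of TGFBR2, chr3:30606351-30606600, belongs to the downstream start site of the pair listed for that gene. The window of the upstream site, chr3:30606106-30606355, is not shown and held no match to any of these motifs. The TGFB2 window is chr1:218345086-218345335, and that of TGFBI is chr5:136028738-136028987.
TGFBR2: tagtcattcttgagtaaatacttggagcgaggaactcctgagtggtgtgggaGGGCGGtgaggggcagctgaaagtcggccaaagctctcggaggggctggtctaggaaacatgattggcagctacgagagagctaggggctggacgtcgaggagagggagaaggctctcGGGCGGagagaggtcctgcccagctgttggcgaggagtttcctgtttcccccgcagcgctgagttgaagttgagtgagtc
TGFB2: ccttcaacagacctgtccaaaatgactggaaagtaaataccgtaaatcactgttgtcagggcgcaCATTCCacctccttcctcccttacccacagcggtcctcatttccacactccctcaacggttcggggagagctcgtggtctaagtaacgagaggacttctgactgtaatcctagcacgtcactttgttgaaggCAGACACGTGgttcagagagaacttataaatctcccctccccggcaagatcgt
TGFBI: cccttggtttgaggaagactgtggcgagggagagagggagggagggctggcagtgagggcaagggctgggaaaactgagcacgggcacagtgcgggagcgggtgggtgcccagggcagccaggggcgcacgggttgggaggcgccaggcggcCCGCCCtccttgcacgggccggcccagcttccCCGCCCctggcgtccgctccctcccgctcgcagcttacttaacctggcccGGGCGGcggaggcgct

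The TGFBR2 and TGFBI windows held SP1 boxes and no match to the other motifs as written above. The TGFBR2 window ends in TGAGTC, all but the last letter of the AP-1 motif, and bases past its end were not searched. Other forms of the E-box were not searched for, among them CAGCTG, which the TGFBR2 window holds unmarked. In TGFBR2 the SP1 boxes began 198 and 80 bases before the start, and in TGFBI 98, 66 and 16 bases before it. The TGFB2 window held a TEAD match beginning 185 bases before the start, and a SMAD box at 53 bases that overlaps an E-box at 49 bases. Among all 35116 promoter windows of this length, 42.6% held an SP1 box and 36.5% an E-box of the form CANGTG. A SMAD box was held by 13.6%, a TEAD match by 11.9% and an AP-1 match by 6.57%. All 10 members matched the promoter table, with 26 start sites between them. These matches describe letters in a window and were not tested for binding.

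Levels were taken to be FPKM (fragment counts per transcript length and per library total), as the deposited values name no unit and their library scaling is not given. Such values are per length and allow genes to be compared within a library. Read depth is unknown, so no counting interval is given. The FPKM of a library summed to between 670310 and 1013040, of which MIR4461 alone took 14.1% to 43.4% of it. Of 7 melanocyte markers, all 7 reached a group mean of 1 FPKM in MMACSF and 5 or 6 did in COLO858, where MLANA (0.43 to 0.69 FPKM) and, apart from 24 h (1.18 FPKM), TYR (0.32 to 0.54 FPKM) were near 0. Keratinocyte and endothelial markers stayed under 1 FPKM in every group, and 5 leukocyte markers summed to between 0.447 and 4.44 FPKM. All 7 genes of MAPK output fell in each comparison of drug with DMSO. The labels say that cells were seeded in 2 replicates but not whether the cultures were otherwise separate, so p-values measure the spread between these libraries. Changes are log2 fold changes of FPKM + 1, a scale that understates the change of low genes. They were tested with limma and called at a Benjamini-Hochberg adjusted p under 0.01 over all genes tested. Shares of all genes are given at this threshold. For counts at an unadjusted p under 0.05 the share over all genes is not given, so no excess can be read from them.

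In DMSO the lines expressed the pathway at different levels. The lines come in separate tables, so these levels are given side by side and were not tested. In COLO858, TGFBI led the members at 747 FPKM, above 99.5% of all listed genes, followed by TGFB1 at 43.5 FPKM. SMAD3, TGFBR1 and TGFBR2 came next with overlapping libraries, at 8.79, 7.58 and 7.10 FPKM. In MMACSF, TGFBR1 (35.7 FPKM) and TGFBR2 (26.9 FPKM) led with overlapping libraries, followed by SMAD3 at 16.9 FPKM. TGFBI stood at 0.676 FPKM in MMACSF and TGFB1 at 1.32 FPKM. The ratio of the lines was 1106 for TGFBI and 32.9 for TGFB1, both higher in COLO858, and 4.71 for TGFBR1 and 3.78 for TGFBR2, both higher in MMACSF. SMAD2 stood at 4.75 FPKM in COLO858 and 4.65 FPKM in MMACSF.

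**Figure D1:**
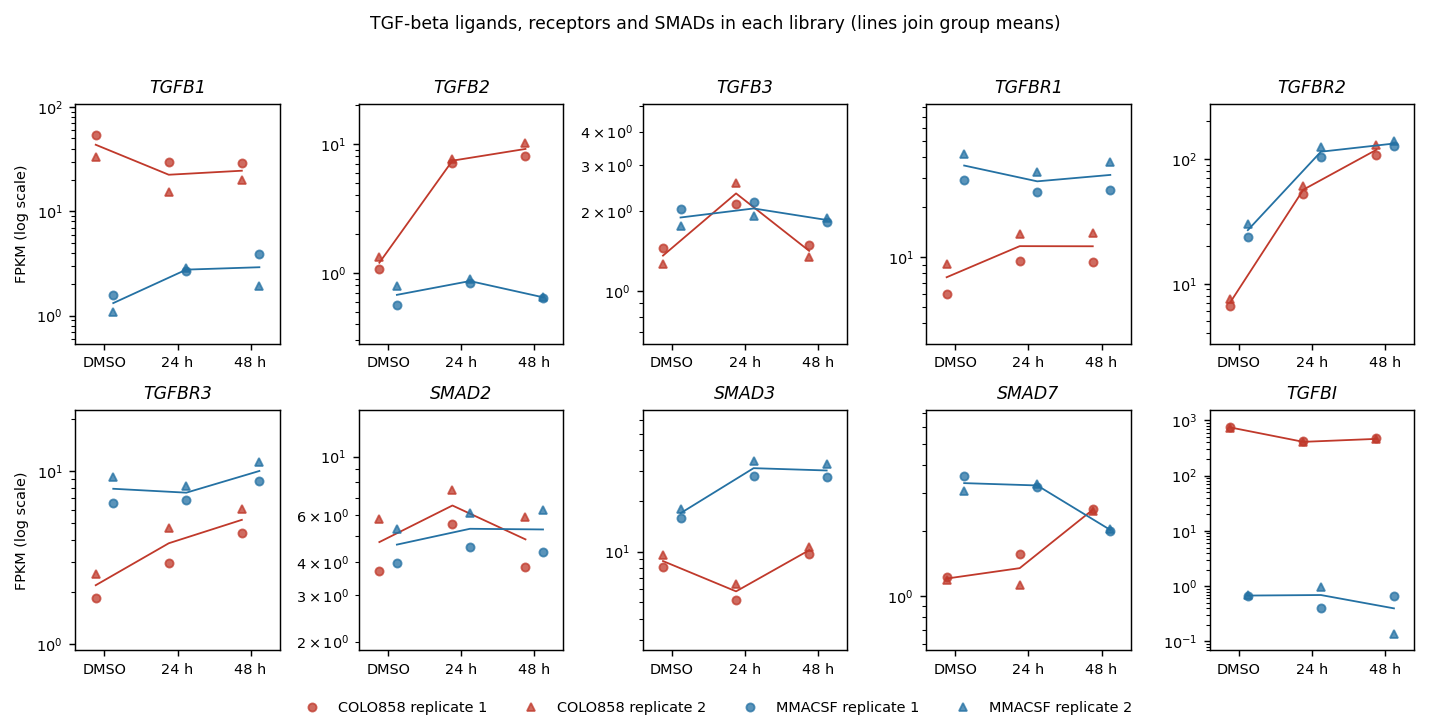
FPKM of each member (log axis, a different range in each panel) in the DMSO, 24 h and 48 h libraries of COLO858 (red) and MMACSF (blue); circles are replicate 1, triangles replicate 2, and lines join group means. TGFBR2 stands above its DMSO libraries in every vemurafenib library of both lines, while TGFB2 does so by a wide margin in COLO858, from 1.07 to 1.33 FPKM up to between 7.13 and 10.2 FPKM.

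In COLO858, TGFBR2 and TGFB2 rose and TGFBI fell at both drug times. TGFBR2 reached 16.7 times its DMSO mean by 48 h, TGFB2 reached 7.61 times, and TGFBI stood at 0.621 of its DMSO mean. At 24 h, 2 of 10 members were called higher, against 4.11% of the 12696 genes tested, and 1 was called lower, against 5.71%. The counts at 48 h were again 2 higher, against 4.74% of all genes, and 1 lower, against 4.73%. Between 24 and 48 h, limma called 0 of 10 members in either direction, against 1.17% of all genes called higher and 0.213% lower. Apart from these calls, 4 members had an unadjusted p under 0.05. The median log2 fold change of the 10 members was 0.45 at 24 h and 0.38 at 48 h, beside 0.06 and -0.01 over all genes tested.

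In MMACSF, TGFBR2 was the 1 member called, at 4.25 times its DMSO mean at 24 h and 4.94 times at 48 h. TGFB2 and TGFBI were under 1 FPKM in all 3 groups and were not tested, which left 8 members. At 24 h, 1 of 8 was called higher, against 2.22% of the 12599 genes tested, and 0 were called lower, against 3.6%, with 2 members at an unadjusted p under 0.05. At 48 h, 1 of 8 was called higher, against 3.42% of all genes, and 0 lower, against 5.41%, with 4 at an unadjusted p under 0.05. Between 24 and 48 h, limma called 0 of 8, against 0.111% of all genes called in each direction. Apart from these calls, 1 member had an unadjusted p under 0.05. The median log2 fold change of the 8 was 0.12 at 24 h and 0.23 at 48 h, beside 0.07 and 0.06 over all genes.

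**Figure D2:**
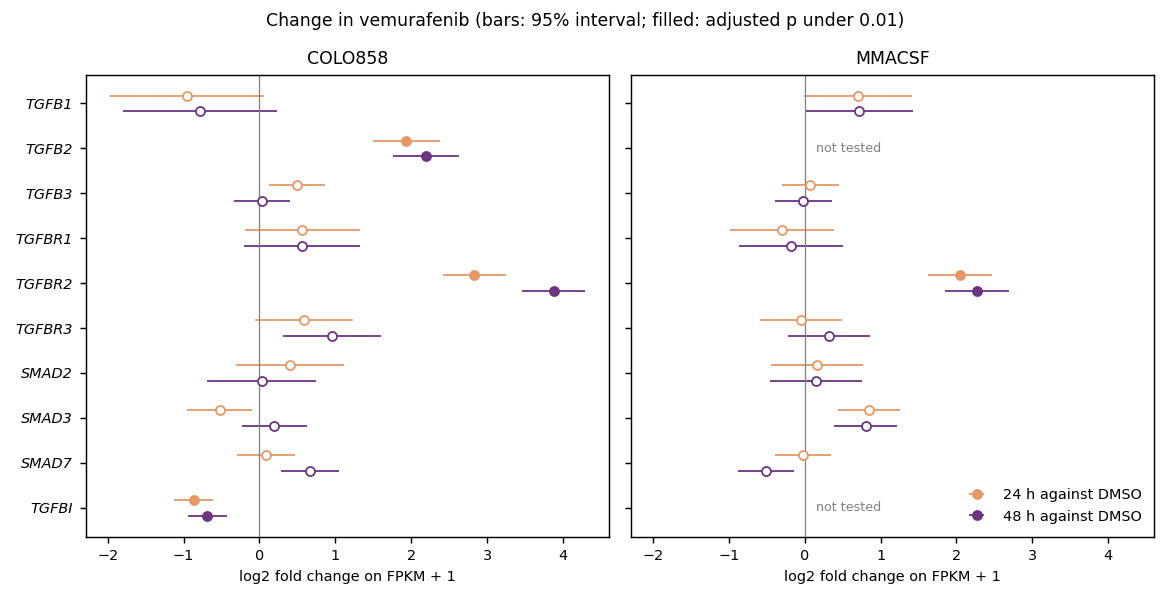
Log2 fold change of FPKM + 1 against DMSO for each member at 24 h (orange) and 48 h (purple), in COLO858 (left) and MMACSF (right). Bars are 95% intervals from limma and filled points have an adjusted p under 0.01, which are TGFB2, TGFBR2 and TGFBI in COLO858 and TGFBR2 in MMACSF.

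Among the ligands, TGFB2 was the member that rose. It was listed in COLO858 at 1.07 and 1.33 FPKM in DMSO, 7.13 and 7.70 FPKM at 24 h, and 8.03 and 10.2 FPKM at 48 h. The drug libraries lay far above the DMSO libraries, and the 48 h pair lay above the 24 h pair. TGFB2 changed by 1.94 ± 0.17 (SE) on the log2 scale after 24 h (limma, adjusted p = 0.00238) and 2.20 ± 0.17 at 48 h (adjusted p = 0.00180). The difference between 48 and 24 h, 0.26 ± 0.17, was not called (limma, adjusted p = 0.477). With any 1 of the 4 libraries left out, both calls were lost. The change was then 1.85 to 2.02 at 24 h and 2.04 to 2.36 at 48 h. Such a fit leaves 1 library in a group and has less power, so a lost call does not single out a library. In bulk RNA, a change in the RNA of each cell and a change in the share of cells that express a gene cannot be told apart. In MMACSF, TGFB2 was between 0.565 and 0.892 FPKM in all 6 libraries. The 24 h libraries, at 0.838 and 0.892 FPKM, stood above the others. Those at 48 h, at 0.642 and 0.653 FPKM, lay between the DMSO libraries.

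TGFB1, the most widely expressed of the ligands, had lower values in drug in COLO858 but did not pass the test. With the replicate number added to the fit as a block, TGFB1 was called there at both times. It stood at 53.9 and 33.1 FPKM in DMSO, 29.7 and 15.2 FPKM at 24 h, and 28.9 and 20.1 FPKM at 48 h. Replicate 1 exceeded replicate 2 in all 3 groups, and no drug library reached either DMSO library. Its log2 fold change was -0.96 ± 0.40 after 24 h (limma, adjusted p = 0.142) and -0.78 ± 0.40 at 48 h (adjusted p = 0.216). In MMACSF, TGFB1 was low, at 1.57 and 1.07 FPKM in DMSO, 2.65 and 2.88 FPKM at 24 h, and 3.91 and 1.91 FPKM at 48 h. All 4 drug libraries lay above DMSO there, with log2 fold changes of 0.71 ± 0.28 at both times (limma, adjusted p = 0.140 at 24 h and 0.127 at 48 h).

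TGFB3, a ligand that signals through the same receptors, stayed within a narrow range. In COLO858 it stood at 1.46 and 1.27 FPKM in DMSO, 2.13 and 2.55 FPKM at 24 h, and 1.49 and 1.35 FPKM at 48 h. The 24 h libraries stood above the others, but the log2 fold change of 0.50 ± 0.15 was not called (limma, adjusted p = 0.0597). In MMACSF, TGFB3 ranged from 1.76 to 2.18 FPKM over the 6 libraries, and drug and DMSO libraries overlapped at both times.

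TGFBR2, the ligand-binding type II receptor, rose in both lines. In COLO858 it was at 6.60 and 7.60 FPKM in DMSO, 52.4 and 61.0 FPKM at 24 h, and 108 and 129 FPKM at 48 h. The 3 groups did not overlap, and every later library lay above every earlier one. This came to 2.83 ± 0.17 on the log2 scale after 24 h (limma, adjusted p = 0.000883) and 3.88 ± 0.17 at 48 h (adjusted p = 0.000416). From 24 to 48 h it was 1.05 ± 0.17, which did not pass the threshold (limma, adjusted p = 0.0292) but was called with the replicate block. The gene moved from above 66.9% of all listed genes in DMSO to above 96.96% at 48 h. The 48 h call held with each of the 4 libraries left out, while at 24 h it was lost without replicate 2 of the 24 h group. The change was then 2.72 to 2.94 at 24 h and 3.75 to 4.01 at 48 h.

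In MMACSF, TGFBR2 was at 23.7 and 30.1 FPKM in DMSO, 103 and 125 FPKM at 24 h, and 127 and 139 FPKM at 48 h. Drug and DMSO libraries were again far apart, and the 24 and 48 h libraries were close to each other. On the log2 scale the rise was 2.05 ± 0.17 after 24 h (limma, adjusted p = 0.00255) and 2.27 ± 0.17 at 48 h (adjusted p = 0.00143). From 24 to 48 h it was 0.22, with a 95% interval from -0.20 to 0.64. At 24 h the call was lost with any 1 of the 4 libraries left out. At 48 h it was lost without replicate 1 of DMSO, replicate 1 or replicate 2 of the 48 h group. The change with 1 library left out was 1.88 to 2.22 at 24 h and 2.11 to 2.44 at 48 h. Such fits have less power. By 48 h the group means of the lines were 118 FPKM in COLO858 and 133 FPKM in MMACSF.

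Fibroblasts are a cell type known to express TGFBR2. The summed level of 6 fibroblast markers in COLO858 was 9.50 to 12.3 FPKM in DMSO, 16.0 to 19.1 FPKM at 24 h and 18.6 to 28.4 FPKM at 48 h. Most of it was LUM, a matrix proteoglycan, while DCN was at 0 in both DMSO libraries and under 0.23 FPKM in drug. Of the 4 markers tested in COLO858, limma called 0 higher at either time, with 3 at an unadjusted p under 0.05, and COL1A2 fell. In MMACSF the sum went from 57.7 to 79.2 FPKM in DMSO down to between 20.1 and 29.0 FPKM at 48 h. The melanocyte sum was higher in drug in both lines, from 699 to 715 FPKM in DMSO to between 3910 and 4142 FPKM at 24 h in COLO858, and from 11158 to 11371 FPKM to between 15584 and 16770 FPKM in MMACSF. Most of it in drug was DCT in COLO858 (267 FPKM in DMSO, 2915 FPKM at 24 h) and PMEL in MMACSF (7944 and 10657 FPKM). Of 6 markers tested in COLO858, limma called 3 higher and 0 lower at each time. MITF there was at 67.7 FPKM in DMSO and 67.3 FPKM at 48 h, and TYR at 0.54 and 0.32 FPKM. The part of these markers in the TGFBR2 result was not tested.

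TGFBR1, the type I receptor kinase, did not pass the test in either line without the replicate block. With the block it was called in COLO858 at both times. In COLO858 it was at 6.02 and 9.14 FPKM in DMSO, 9.54 and 13.8 FPKM at 24 h, and 9.35 and 13.9 FPKM at 48 h. Replicate 2 exceeded replicate 1 in all 6 groups of the study, by 1.33-fold to 1.52-fold. Log2 fold changes were 0.57 ± 0.30 after 24 h (limma, adjusted p = 0.225) and 0.56 ± 0.30 at 48 h (adjusted p = 0.234). In MMACSF, TGFBR1 was at 29.3 and 42.1 FPKM in DMSO, 24.6 and 32.7 FPKM at 24 h, and 25.4 and 37.2 FPKM at 48 h. Drug and DMSO libraries overlapped there, with 95% intervals from -0.98 to 0.39 at 24 h and from -0.87 to 0.50 at 48 h.

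The co-receptor TGFBR3 lay higher in drug in COLO858, short of the threshold. With the replicate block it was called there at both times. Its values were 1.85 and 2.55 FPKM in DMSO, 2.97 and 4.71 FPKM at 24 h, and 4.43 and 6.06 FPKM at 48 h. No drug library fell to the DMSO level. Its log2 fold change reached 0.58 ± 0.26 after 24 h (limma, adjusted p = 0.154) and 0.96 ± 0.26 at 48 h (adjusted p = 0.0469). In MMACSF it ranged from 6.57 to 11.2 FPKM, with overlap between drug and DMSO at both times.

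Of the signal transducers, SMAD2 gave overlapping values and SMAD3 responded differently in the lines at 24 h. SMAD2 ranged from 3.71 to 7.49 FPKM in COLO858 and from 3.96 to 6.27 FPKM in MMACSF, and its drug libraries overlapped DMSO in all 4 comparisons. SMAD3 in COLO858 was at 8.06 and 9.52 FPKM in DMSO, 5.19 and 6.43 FPKM at 24 h, and 9.68 and 10.7 FPKM at 48 h. It was thus low at 24 h and back above DMSO at 48 h. The fit gave a log2 fold change of -0.53 ± 0.17 after 24 h (limma, adjusted p = 0.0771), 0.20 ± 0.17 at 48 h (adjusted p = 0.447) and 0.72 ± 0.17 from 24 to 48 h (adjusted p = 0.0814). In MMACSF it was at 15.9 and 17.9 FPKM in DMSO, 28.0 and 34.5 FPKM at 24 h, and 27.6 and 33.0 FPKM at 48 h. All 4 drug libraries stood above DMSO. The log2 fold change was 0.85 ± 0.16 after 24 h (limma, adjusted p = 0.0231) and 0.80 ± 0.16 at 48 h (adjusted p = 0.0225), which did not reach the threshold. With the replicate block, SMAD3 was called at 24 h and from 24 to 48 h in COLO858, and at both drug times in MMACSF.

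The inhibitor SMAD7 lay above its DMSO level at 48 h in COLO858 and below it in MMACSF, without a call in either line. With the replicate block it was called at 48 h in COLO858. In COLO858 it was at 1.22 and 1.19 FPKM in DMSO, 1.57 and 1.13 FPKM at 24 h, and 2.53 and 2.47 FPKM at 48 h. The 48 h libraries stood at 2.08 times the DMSO mean, and the log2 fold change of 0.67 ± 0.15 was not called (limma, adjusted p = 0.0310). In MMACSF it was at 3.59 and 3.04 FPKM in DMSO, 3.17 and 3.30 FPKM at 24 h, and 1.99 and 2.04 FPKM at 48 h. There the 48 h libraries lay below all others, at 0.609 of the DMSO mean, with a log2 fold change of -0.51 ± 0.15 (limma, adjusted p = 0.0577).

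TGFBI, a secreted matrix protein named for its induction by TGF-beta, fell in COLO858. It was at 767 and 728 FPKM in DMSO, 417 and 403 FPKM at 24 h, and 472 and 456 FPKM at 48 h. The drug libraries lay well below DMSO but above 99.2% of all listed genes at 24 h and 99.3% at 48 h. TGFBI changed by -0.86 ± 0.10 on the log2 scale after 24 h (limma, adjusted p = 0.00469) and -0.69 ± 0.10 at 48 h (adjusted p = 0.00942). Both calls were lost with any 1 of the 4 libraries left out, in fits of less power. The change was then -0.90 to -0.83 at 24 h and -0.72 to -0.65 at 48 h. The 48 h call was also lost under 5 of 8 other settings, with an adjusted p of up to 0.0295, and the 24 h call when only the 4 libraries compared gave the spread (adjusted p = 0.0153). In MMACSF it was between 0.138 and 0.972 FPKM in the 6 libraries and was not tested.

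The responses of the lines were compared directly, as the log2 fold change in COLO858 minus that in MMACSF, in 1 limma model of all 12 libraries. At 24 h, 1 of 10 members was called higher, against 1.78% of the 13595 genes tested, and 1 lower, against 1.93%. At 48 h, 3 of 10 were called higher, against 4.19% of all genes, and 0 lower, against 3.3%, with 5 members in all at an unadjusted p under 0.05. TGFB2 and TGFBI entered this fit through their levels in COLO858, as both were under 1 FPKM in every MMACSF group. The TGFB2 difference therefore mostly restates the rise of TGFB2 in COLO858.

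TGFB2 responded more in COLO858 at both times, by 1.78 ± 0.20 at 24 h (limma, adjusted p = 0.00150) and 2.22 ± 0.20 at 48 h (adjusted p = 0.000245), and both calls held with each of 8 libraries left out. The TGFBR2 response was larger in COLO858 by 1.61 ± 0.23 at 48 h (limma, adjusted p = 0.00270), and by 0.78 ± 0.23 at 24 h, which was not called (adjusted p = 0.0831). The TGFBR2 gene started 3.78 times lower in COLO858 than in MMACSF and the lines ended at near levels. SMAD7 differed by 1.18 ± 0.18 at 48 h (limma, adjusted p = 0.00298) and SMAD3 by -1.37 ± 0.23 at 24 h (adjusted p = 0.00869). The SMAD3 difference at 48 h was -0.61 ± 0.23 and was not called (limma, adjusted p = 0.124). With the replicate block, this difference and that of TGFBR2 at 24 h were called. Leaving out 1 library, which leaves a lone library in a group and less power, ended the TGFBR2 call in 5 of 8 cases. They were COLO858 DMSO replicate 1, COLO858 48 h replicate 2, MMACSF DMSO replicate 2 and both MMACSF 48 h replicates. The SMAD7 call ended in 7 of 8, with replicate 2 of MMACSF DMSO as the exception, and the SMAD3 call in 8 of 8. The differences were then 1.44 to 1.77 for TGFBR2, 1.09 to 1.27 for SMAD7 and -1.52 to -1.22 for SMAD3. The SMAD3 call was also lost under 4 of 8 other settings, with an adjusted p of up to 0.0322.

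**Figure D3:**
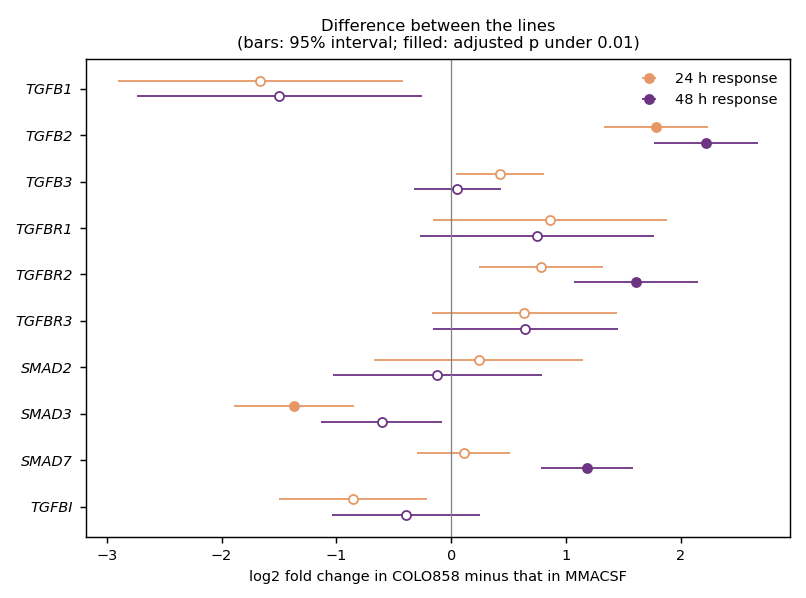
Log2 fold change in COLO858 minus that in MMACSF for each member, at 24 h (orange) and 48 h (purple). Bars are 95% intervals from limma and filled points have an adjusted p under 0.01, with TGFB2 at 1.78 and 2.22, TGFBR2 at 1.61 and SMAD7 at 1.18 to the right of 0 and SMAD3 at -1.37 to the left.

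Ratios of members within a library show the balance of the pathway without the scaling of the library. In COLO858 the ratio of TGFBR2 to TGFBR1 was 1.10 and 0.831 in DMSO, 5.49 and 4.43 at 24 h, and 11.5 and 9.27 at 48 h. The type II receptor went from near the level of its partner to far above it. In MMACSF the ratio was 0.809 and 0.715 in DMSO, 4.19 and 3.83 at 24 h, and 5.00 and 3.72 at 48 h. The ratio of TGFB2 to TGFB1 in COLO858 was 0.0198 and 0.0402 in DMSO, 0.240 and 0.508 at 24 h, and 0.277 and 0.510 at 48 h. TGFB1 remained the more abundant ligand in every COLO858 library. The ratio of SMAD3 to SMAD2 in COLO858 was 2.17 and 1.64 in DMSO, 0.929 and 0.858 at 24 h, and 2.52 and 1.82 at 48 h, so it passed below 1 at 24 h only. In MMACSF the same ratio was 4.02 and 3.35 in DMSO, 6.18 and 5.62 at 24 h, and 6.35 and 5.26 at 48 h.

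**Figure D4:**
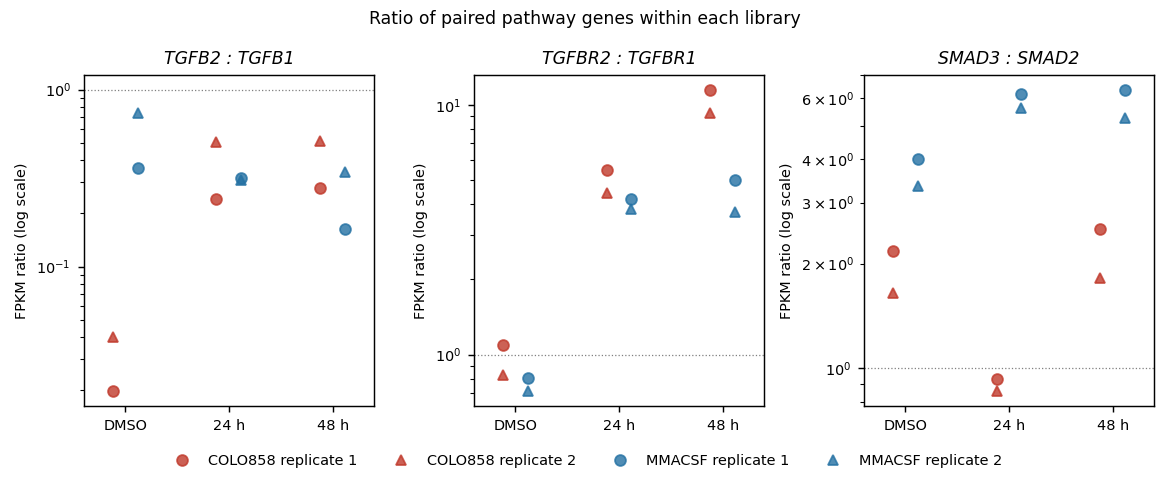
Ratio of FPKM (log axis) within each library for TGFB2 to TGFB1, TGFBR2 to TGFBR1 and SMAD3 to SMAD2, by treatment, in COLO858 (red) and MMACSF (blue); the dotted line marks equal levels. The ratio of TGFBR2 to TGFBR1 lies between 0.715 and 1.10 in the DMSO libraries and between 3.72 and 11.5 in the drug libraries.

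Other genes of the pathway were counted by role, without the 10 members, against the same shares of all genes. In COLO858 these shares were 4.11% higher and 5.71% lower at 24 h, and 4.74% and 4.73% at 48 h. In MMACSF they were 2.22% higher and 3.6% lower at 24 h, and 3.42% and 5.41% at 48 h. Of 13 genes of ligand latency and activation, 10 were tested in COLO858, where 3 rose and 1 fell at 24 h and 3 rose at 48 h. The list's median log2 fold change was 0.50 and 0.32, beside 0.06 and -0.01 over all genes. THBS1, a thrombospondin and an extracellular activator of latent TGF-beta, went from 1.18 and 1.31 FPKM in DMSO to 45.2 and 44.2 FPKM at 24 h and 209 and 221 FPKM at 48 h in COLO858. Its log2 fold change was 4.35 ± 0.12 after 24 h (limma, adjusted p = 0.000263) and 6.59 ± 0.12 at 48 h (adjusted p = 9.04e-05). In MMACSF, THBS1 was at or under 0.307 FPKM in all 6 libraries. The protease gene MMP2 rose in both lines, by 1.44 (24 h) and 2.24 (48 h) in COLO858 and by 1.66 and 1.88 in MMACSF. MMP14, a membrane protease that processes latent TGF-beta, rose in COLO858 by 1.47 and 1.39. Its means there were 11.9 FPKM in DMSO, 34.8 FPKM at 24 h and 33.0 FPKM at 48 h. MMP14 was higher throughout in MMACSF, at 216, 158 and 192 FPKM. ITGB8, an integrin chain that activates latent TGF-beta, fell by 1.61 at 24 h in COLO858 (limma, adjusted p = 0.00998). Of 8 genes of this list tested in MMACSF, MMP2 was the 1 that passed at each time.

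Of 8 other receptors and co-receptors for ligands that signal through SMAD2 and SMAD3, 5 were tested in each line. By limma, 0 of 5 were called in either line at either time, with 1 at an unadjusted p under 0.05 in each of the 4 comparisons with DMSO. Of 12 activin and GDF ligands and antagonists, 5 were tested in each line. GDF11, a ligand of the activin receptors, was the 1 that passed, at 24 h in COLO858 (0.87) and at both times in MMACSF (1.11 and 0.86). At an unadjusted p under 0.05 there were 3 of 5 at each time in COLO858, and 4 and 3 in MMACSF. Larger falls short of the threshold, named after their values were seen, were INHBA in COLO858 (-1.27 and -1.21, limma, adjusted p = 0.0103 and 0.0118) and GDF15 in MMACSF (-3.37 and -3.03, adjusted p = 0.0147 and 0.0162). Of 19 SMAD cofactors and negative regulators, all were tested, and 1 passed at each time in COLO858. These were the corepressor gene TGIF1, which fell by 0.98 at 24 h and was named after its values were seen, and PMEPA1, a feedback inhibitor, which rose by 1.05 at 48 h (limma, adjusted p = 0.00928). In MMACSF limma called 0 of 19, with 6 at an unadjusted p under 0.05 at 24 h and 8 at 48 h.

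Genes commonly listed as TGF-beta targets were called in both directions. PMEPA1, SKIL and TGIF1 are also in the list of cofactors and regulators, and LTBP2 in that of latency and activation. Of 23 such genes, 22 were tested in COLO858, of which 2 were called higher and 3 lower after 24 h, against 4.11% and 5.71% of all genes. After 48 h, 9 were called higher and 2 lower, against 4.74% and 4.73%. The list had a median log2 fold change of -0.0010 and 0.61 at these times, beside 0.06 and -0.01 over all genes. In MMACSF 18 were tested, of which 4 were called higher and 1 lower after 24 h, against 2.22% and 3.6% of all genes. After 48 h, 2 were called higher and 3 lower, against 3.42% and 5.41%. The median there was 0.08 at 24 h and -0.24 at 48 h, beside 0.07 and 0.06 over all genes.

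CDKN2B, a cell cycle inhibitor induced by TGF-beta in many cells, was at 10.2 and 13.5 FPKM in DMSO in COLO858, 2.02 and 2.34 FPKM at 24 h, and 1.41 and 2.13 FPKM at 48 h. Its log2 fold change was -2.01 ± 0.21 after 24 h (limma, adjusted p = 0.00363) and -2.22 ± 0.21 after 48 h (adjusted p = 0.00303). CYR61, a matricellular protein, was at 2.52 and 2.23 FPKM in DMSO, 16.2 and 16.8 FPKM at 24 h, and 57.9 and 59.1 FPKM at 48 h. Its log2 fold change was 2.38 ± 0.13 at 24 h and 4.14 ± 0.13 at 48 h (limma, adjusted p = 0.000829 and 0.000249). Thus CDKN2B and TGFBI were lower in drug in the same libraries in which CYR61 was higher. SNAI2, a repressor of epithelial genes, rose in COLO858 by 3.35 (24 h) and 2.70 (48 h), and in MMACSF by 1.40 (24 h). ACTA2, smooth muscle actin, rose by 2.75 at 48 h in COLO858 and by 2.48 and 3.22 at 24 and 48 h in MMACSF. FN1, fibronectin, named after its values were seen, rose by 0.86 at 48 h in COLO858 (limma, adjusted p = 0.00719) and fell by 1.09 in MMACSF (adjusted p = 0.00508). The FN1 response differed between the lines by 1.95 (limma, adjusted p = 9.44e-05). FN1 stayed higher in MMACSF, at 825 FPKM in DMSO and 386 FPKM at 48 h, beside 37.5 and 68.8 FPKM in COLO858.

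**Figure D5:**
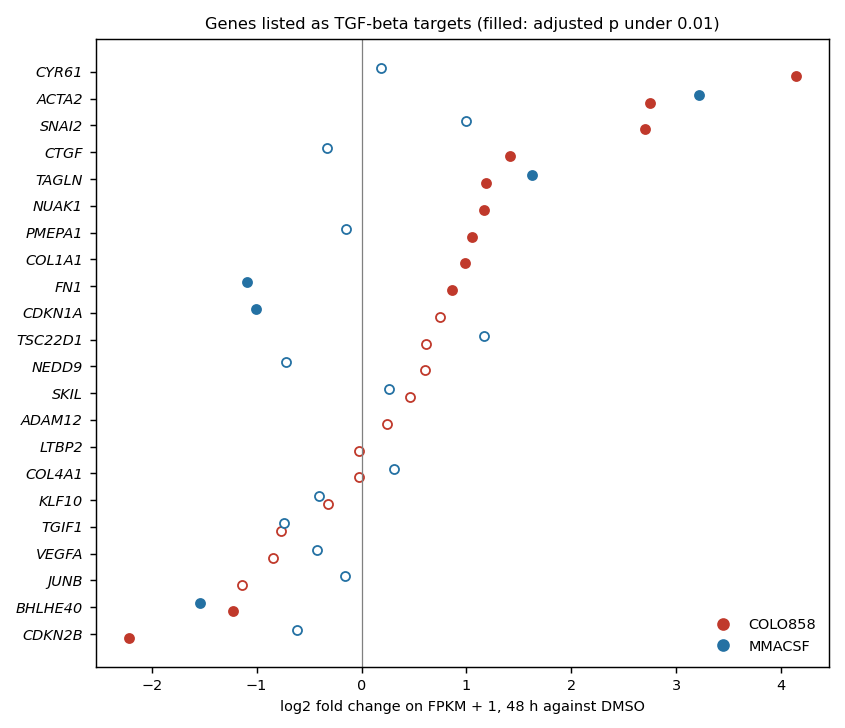
Log2 fold change of FPKM + 1 at 48 h against DMSO for genes listed as TGF-beta targets, in COLO858 (red) and MMACSF (blue), ordered by COLO858; filled points have an adjusted p under 0.01 and genes not tested in MMACSF have no blue point. In COLO858 the points run from CDKN2B at -2.22 to CYR61 at 4.14, with 9 filled above 0 and 2 below.

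Genes whose pattern lay closest to TGFBR2, TGFB2 and TGFBI were found by Euclidean distance of log2(FPKM + 1), centered on the DMSO mean of each line, over the 12 libraries. The histone gene HIST2H2BE was closest to TGFBR2, at a distance of 0.758 where the median over all genes was 8.03, followed by MLIP (1.42) and CITED1 (1.43). At 48 h HIST2H2BE had a log2 fold change of 3.73 in COLO858 and 2.01 in MMACSF. Closest to TGFB2 were JAKMIP2 (0.403), RNASE1 (0.498) and MTSS1 (0.508), where the median over all genes was 4.27. Closest to TGFBI were PLAUR (0.598), NKAIN1 (0.618) and ELK3 (0.621), where the median was 2.23. TGFB2 and TGFBI were under 1 FPKM in every MMACSF group, as were JAKMIP2, RNASE1 and NKAIN1, which were not tested there. The likeness to TGFB2 and TGFBI therefore rests mainly on COLO858. PLAUR encodes the urokinase receptor, and its log2 fold changes in COLO858 were -0.64 at 24 h and -0.92 at 48 h. The 12 libraries share their scaling and DMSO pairs, and these distances are a description.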

How the data were processed

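RNA was sequenced from 12 libraries of COLO858 and MMACSF cells. Per the labels, cells were lysed in the dish and stranded mRNA libraries were read as single reads. The submitters' processing notes name TopHat, Cuffdiff and hg19. The authors deposited 1 table of normalized values per line, which name no unit beyond that. These deposited values were taken to be FPKM, since the authors worked on FPKM from Cuffdiff and the values are neither whole nor of equal sum. The program versions, annotation, strand setting and library scaling are not given in the sources used here. Whole reads could not be recovered, so depth is unknown and no count model was used. All 12 columns were used.

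Each line was fitted with limma 3.58.1 in R 4.3.3 on log2(FPKM + 1), with 3 groups over 6 libraries, a mean-variance trend and two-sided tests. A gene was tested where any group averaged 1 FPKM or more. Benjamini-Hochberg adjustment covered all genes tested, with a threshold of 0.01. Differences between lines were an interaction in a model of 6 groups over 12 libraries. The procedure was tested on simulated data.

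The members and gene lists were chosen with earlier results of these data known. Of each pathway list, genes past the threshold with a log2 change of at least 1 against DMSO are named, at most the 4 with the largest change, together with the 3 genes of the most similar pattern to each of the 3 members with the largest called change. Genes named outside this rule are marked as such, and 1 listed target gene is not reported here. Coordinates of genes were read from GENCODE v44 on GRCh37, and promoters from RefSeq on GRCh38.p14. Alternatives tried were 0.1 FPKM added, no minimum or a minimum of 10 FPKM, median-ratio rescaling, equal sums without small RNA genes, no trend, the replicate block, only the libraries compared, and each library left out in turn.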

Additional observations from a re-analysis of the deposited data

Results flagged for a closer look

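The lines differed in their response to vemurafenib for 4 members, each picked out by the limma test of the difference itself, COLO858 minus MMACSF. The TGFB2 response was larger in COLO858 by 1.78 ± 0.20 (SE, log2) at 24 h (limma, adjusted p = 0.00150) and 2.22 ± 0.20 at 48 h (adjusted p = 0.000245). TGFB2 went from 1.20 FPKM in DMSO to 9.14 FPKM at 48 h in COLO858, beside 0.676 and 0.648 FPKM in MMACSF. It was under 1 FPKM in every MMACSF group and was not tested in that line. The TGFB2 difference, also with libraries left out, therefore mostly restates the rise in COLO858. The TGFBR2 response at 48 h was larger by 1.61 ± 0.23 (adjusted p = 0.00270), from 7.10 to 118 FPKM in COLO858 beside 26.9 to 133 FPKM in MMACSF. The SMAD7 response at 48 h differed by 1.18 ± 0.18 (adjusted p = 0.00298), from 1.21 to 2.50 FPKM in COLO858 beside 3.32 to 2.02 FPKM in MMACSF. The SMAD3 response at 24 h differed by -1.37 ± 0.23 (adjusted p = 0.00869), from 8.79 to 5.81 FPKM in COLO858 beside 16.9 to 31.3 FPKM in MMACSF. The TGFB2 differences held with each library left out, while the calls of the other 3 were lost in at least 5 of 8 cases. Such fits have less power, and all these differences kept their direction.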

How the results depend on the processing

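With other settings than those used, 519 of 557 member values kept their direction and side of the threshold, 20 passed it newly, 10 lost it and 8 changed sign, none of them a called value. With 1 library left out, 297 of 376 kept both, 44 lost the threshold and 35 changed sign, again none called. A lone library left in a group is then assumed to vary like the other groups, and the fit has less power.

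Groups of a line carry the same replicate numbers, and what these pair is not given in the labels. Across genes, libraries of the same number deviated from their groups with a correlation of 0.195 to 0.210 for COLO858 and 0.0636 to 0.113 for MMACSF, and without small RNA genes of 0.735 to 0.764 and 0.579 to 0.663. With the replicate block, the number of members called became 7 for each drug time and 2 between them in COLO858, 2 for each drug time in MMACSF, and 6 and 7 for the difference between the lines at 24 and 48 h. Without it these were 3, 3 and 0, then 1 and 1, and then 2 and 3. Over all genes the block gave 5719 and 5549 calls against DMSO in COLO858, where 1247 and 1202 were made without it, and 3284 and 3790 in MMACSF, where 734 and 1113 were made. From 24 to 48 h in COLO858 it gave 2280 where 175 were made, and for the difference between the lines 2396 and 3434 where 505 and 1017 were made. Members called with the block and not without it were TGFB1, TGFBR1, TGFBR3 and SMAD3 (24 h) or SMAD7 (48 h) against DMSO in COLO858, TGFBR2 and SMAD3 from 24 to 48 h there, and SMAD3 at both drug times in MMACSF. Between the lines they were TGFB1, TGFBR1 and TGFBR3 at both times, with TGFBR2 at 24 h and SMAD3 at 48 h.

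For the difference between the lines at 24 h, 1 member was called with 0.1 FPKM added, no minimum, a minimum of 10 FPKM, equal sums or only the libraries compared, and at 48 h 1 with a minimum of 10 FPKM, where fewer genes were tested. Equal sums moved the median of all genes in the 24 h difference to 0.12. With 1 library left out, the number called was 0 to 1 (24 h) and 1 (48 h) for COLO858, 0 (24 h) and 0 to 1 (48 h) for MMACSF, and 1 (24 h) and 1 to 2 (48 h) between the lines.

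Uncalled log2 values that changed sign were, with median-ratio rescaling, TGFBR1 (0.059, COLO858) and SMAD2 (0.0058, MMACSF) from 24 to 48 h, and with equal sums, TGFBR1 from 24 to 48 h in COLO858 (0.030), SMAD7 at 24 h (0.011) and TGFB3 at 48 h (0.012) in MMACSF and SMAD2 between the lines at 48 h (0.039). With 0.1 FPKM added they were TGFB1 from 24 to 48 h in MMACSF (-0.0099) and TGFBI between the lines at 48 h (0.19). The cause was not tested.

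With 1 library left out, ranges that crossed 0 in COLO858 were those of SMAD7 at 24 h (-0.053 to 0.22), of SMAD2 (-0.24 to 0.30) and TGFB3 (-0.023 to 0.094) at 48 h, and of TGFB1 (-0.29 to 0.64) and TGFBR1 (-0.27 to 0.26) from 24 to 48 h. In MMACSF they were SMAD2 (-0.019 to 0.35), SMAD7 (-0.12 to 0.068) and TGFBR3 (-0.27 to 0.17) at 24 h, and TGFB3 (-0.088 to 0.051), SMAD2 (-0.069 to 0.37) and TGFBR1 (-0.45 to 0.082) at 48 h. From 24 to 48 h in MMACSF they were TGFB1 (-0.37 to 0.39), TGFBR1 (-0.15 to 0.38), SMAD2 (-0.23 to 0.21) and SMAD3 (-0.19 to 0.10). Between the lines they were SMAD2 (-0.029 to 0.50) and SMAD7 (-0.028 to 0.24) at 24 h, and TGFB3 (-0.015 to 0.12) and SMAD2 (-0.39 to 0.14) at 48 h. Unknown depth limits what can be said of members near 1 FPKM.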

Other observations

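Replicate 2 lay above replicate 1 in 6 of 6 groups for TGFB2, TGFBR1, TGFBR2, TGFBR3, SMAD2 and SMAD3. The excess was 1.33-fold to 1.52-fold for TGFBR1, 1.34-fold to 1.57-fold for SMAD2 and 1.19-fold to 1.58-fold for TGFBR3. TGFB1 was lower in replicate 2 in 5 of 6 groups. MIR4461 took 14.1% to 19.0% of the summed FPKM in the replicate 1 libraries and 25.8% to 43.4% in the replicate 2 libraries.

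SMAD4, the partner of SMAD2 and SMAD3, ranged from 5.82 to 8.79 FPKM in COLO858 and from 1.96 to 3.84 FPKM in MMACSF, and the endothelial co-receptor ENG from 13.5 to 25.4 FPKM and from 29.2 to 43.0 FPKM.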
